A study of Mus musculus with 7 samples.

Results

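The nonparenchymal fraction of the liver holds the cells other than hepatocytes. The 4 libraries described here are the wild-type (WT) ones among the 7 libraries of a mouse study of Shp2, and they were taken by their genotype label. They were made from livers of C57BL/6J mice at 2 months of age that received no treatment. The knockout line of the study came from crossing Shp2f/f mice to Clec4f-Cre mice. The labels of the WT libraries name neither allele, and do not say whether the WT mice carried one of them, which sex they had, or whether each library came from 1 mouse. Total RNA was made into libraries with the TruSeq RNA v2 kit, which by its standard protocol selects polyadenylated RNA and does not mark strand. With 1 group there is no contrast to test, so no p-value is given. Levels are given as CPM (counts scaled to a common library total and for composition) for WT replicates 1, 2, 3 and 4 in that order. Every ± is the SD over these 4 libraries, and CV is that SD as a percent of the mean. The spread is that between these libraries, which may be technical.

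The liver is perfused by blood from the gut, and its nonparenchymal cells line and guard that flow. Sinusoidal endothelial cells form a fenestrated wall and clear waste by scavenger receptors. Kupffer cells are the resident macrophages that sit in the sinusoids, take up particles and ageing red cells, and return their iron to plasma. Stellate cells store vitamin A and make matrix, and the fraction also holds lymphocytes, dendritic cells and passing blood cells. Hepatocytes make most plasma proteins and are the cells that the preparation is meant to leave behind. In a bulk library, fewer cells of a type and less RNA per cell cannot be told apart.

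Total counts were 16721435, 19208217, 11678385 and 26545605 in WT replicates 1 to 4, so that 3 counts, the limit for a gene without counts, stood for 0.128 to 0.252 CPM. Of 20354 listed genes, 15588 had a count in all 4 libraries and 12310 (60.5%) reached 1 CPM in all 4. WT replicate 2 stood apart. It held the highest value of 34.6% and the lowest value of 37.2% of the 12975 genes kept by a filter on low counts, and its counts leaned towards genes with long exons. In the fifth of genes with the shortest exons its median log2 difference from the mean of the other libraries was -0.31, and in the fifth with the longest it was 0.20. The part of this lean in the results below was not tested, and values without WT replicate 2 are given where they change a statement. Between any 2 libraries, from 485 to 2080 of those genes lay over 2-fold apart, so none was a second copy of another.

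Mitochondrial, hepatocyte and translation genes were the most counted. The cytochrome c oxidase gene COX1 took 8.48% ± 1.10 of all counts and cytochrome b (CYTB) took 3.94% ± 0.702, followed by albumin (Alb) with 2.63% ± 1.02. Selenop, whose protein carries selenium in plasma, took 1.56% ± 0.352. The elongation factor gene Eef1a1 took 0.679% ± 0.103 and Tmsb4x, whose peptide binds actin monomers, 0.519% ± 0.142. Among the 25 most counted genes, a pair belonged to the marker lists of nonparenchymal cells: Lyz2, the lysozyme of myeloid cells (0.196% ± 0.0243), and Clec4f, a lectin of Kupffer cells (0.191% ± 0.0537). Hepatocyte products among them included Alb, Serpina3k, Mup3, Trf, Mup20, Gc, Apoa2 and Fabp1. Others were B2m (the light chain of MHC class I), Ctsb (a lysosomal protease), and the membrane protein genes Serinc3 (2737 ± 1173) and Itm2b (2299 ± 577).

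**Figure D1:**
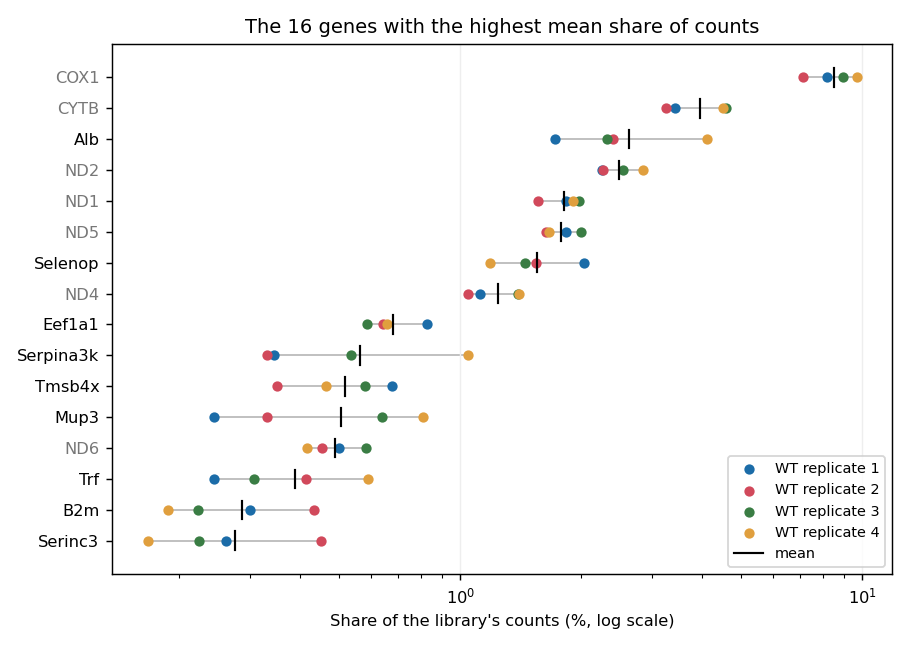
Share of each library's counts (%, log axis) of the 16 genes with the highest mean share, with a point per WT library, a grey line from lowest to highest and a black tick at the mean; mitochondrial genes have grey names. COX1 has the highest point in each of the 4 libraries, and Mup3 and Serpina3k span wider ranges than Eef1a1.

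A count grows with transcript length, so genes were also ordered per kilobase of exon (RPKM, CPM per kilobase). On that scale 21 of the same 25 genes stayed among the highest 25. COX1 led with 55384 RPKM, CYTB had 34819, Alb 11604, Selenop 5409 and Mup3 4906. Genes with short transcripts moved up: Apoa2, an apolipoprotein of HDL, had 4045 RPKM and Fabp1, which binds fatty acids in hepatocytes, 3528. Entering the 25 on this scale were Serpina1e (1025 RPKM), Wfdc17 (975), Hpx (968) and Apoc1 (936). Of the defining markers of cell types, Alb (11604 RPKM) stood above Clec4f (773), Adgre1 of macrophages (108), Stab2 of sinusoidal endothelium (67.7) and Lrat of stellate cells (23.4). Alas2 of red cell precursors (17.7), Cd79a of B cells (11.9), Cd3e of T cells (6.43) and Flt3 of dendritic cells (1.75) followed. Krt19 of bile ducts (0.300) and Ly6g of neutrophils (0.136) were lowest.

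The count was spread unevenly, and not alike in each library. The 10 highest genes took 23.9, 21.9, 26.4 and 29.2% of the counts, and 50% of the counts lay in 430, 404, 326 and 192 genes. WT replicate 4 was thus the most concentrated library. Without mitochondrially encoded genes, 50% lay in 888, 762, 817 and 562 genes. Of the 10 highest genes of each library 8 were shared by all 4, of the 25 highest 14, of the 100 highest 48, and of the 500 highest 322.

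Mitochondrially encoded genes took 20.2% ± 2.42 of the counts, with 19.1, 17.3, 21.999 and 22.4% by library. These genes encode subunits of the respiratory chain. The complex I genes ND2 (25064 ± 5210.4 CPM), ND1 (18243 ± 2791), ND5 (17825 ± 1675) and ND4 (12512 ± 2769) followed COX1 and CYTB, and ND6 had 4865 ± 569 CPM. In contrast COX2, COX3, ATP6 and ND3 were at or under 3 counts in every library, with totals over the 4 libraries of 1, 3, 1 and 0. The mitochondrial share is therefore that of 7 counted genes out of 11 matched by symbol. Why the other 4 were nearly uncounted was not tested. Further genes of the mitochondrial genome, such as ND4L and ATP8, were not among the 11, so the share does not cover them. Within it, the COX1 to CYTB ratio was 2.39, 2.19, 1.95 and 2.15 (CV 8.27%).

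Hepatocyte products had the largest summed counts of the 16 cell type lists, so the libraries held more hepatocyte RNA than the name of the fraction says. The list of 25 hepatocyte genes summed to 35515, 50569.8, 61523 and 115424 CPM, or 6.36% ± 2.702 of the counts. WT replicate 4 was highest, at 3.25 times WT replicate 1, which was lowest. Without WT replicate 4 the mean fell from 65758 to 51385 CPM and the CV from 52.9% to 26.8%. Albumin alone made up 41.3% of the list. It was measured at 15608, 23724, 22736 and 46634 CPM. The share of counts in this list ran from 3.92% to 10.2%. The 25 genes had a median exon length of 2158 bases, and the part of the lean of WT replicate 4 towards short exons was not tested.

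Secreted plasma proteins led the list. Serpina3k, a serine protease inhibitor, had 3115, 3277, 5241 and 11867 CPM, and Trf, the iron carrier transferrin, 2217, 4083, 3010.2 and 6714. For Gc, which carries vitamin D, the values were 1321, 1969, 1918 and 3689.7. All 3 were highest in WT replicate 4 and lowest in WT replicate 1. Ahsg (fetuin-A) had 1480.5 ± 734 CPM, Ttr (transthyretin) 758 ± 461 and Fgb (a fibrinogen chain) 880.0 ± 443. Of the 25 genes, 24 were highest in WT replicate 4, and the exception was the aminotransferase gene Tat, at 254, 828, 1578 and 1307 CPM, which was highest in WT replicate 3. The least counted members were Apoc3, an inhibitor of lipoprotein lipase, with 266 ± 157 CPM and G6pc, the glucose-6-phosphatase, with 118 ± 52.5.

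Products of hepatocytes did not all scale together. Gc followed albumin closely, with a Gc to Alb ratio of 0.0846, 0.0830, 0.0844 and 0.0791 (CV 3.07%) while Gc itself had a CV of 45.9%. The ratio of Trf to Alb had a CV of 11.6%. For Mup20, a major urinary protein that acts as a male pheromone, the ratio to Alb was 0.0376, 0.0380, 0.163 and 0.105 (CV 70.2%). WT replicates 3 and 4 were high and WT replicates 1 and 2 low. Mup20 itself was at 587, 901, 3702 and 4909.9 CPM. The 22 major urinary protein genes summed to 2943, 4538, 11561 and 16627 CPM, and since their copies are nearly identical, the split of reads among them is uncertain. Cyp2e1, which oxidises ethanol, had 1034, 1123, 1536 and 2725 CPM, and Cps1, the first enzyme of the urea cycle, 668, 1207, 1352 and 1379.

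**Figure D2:**
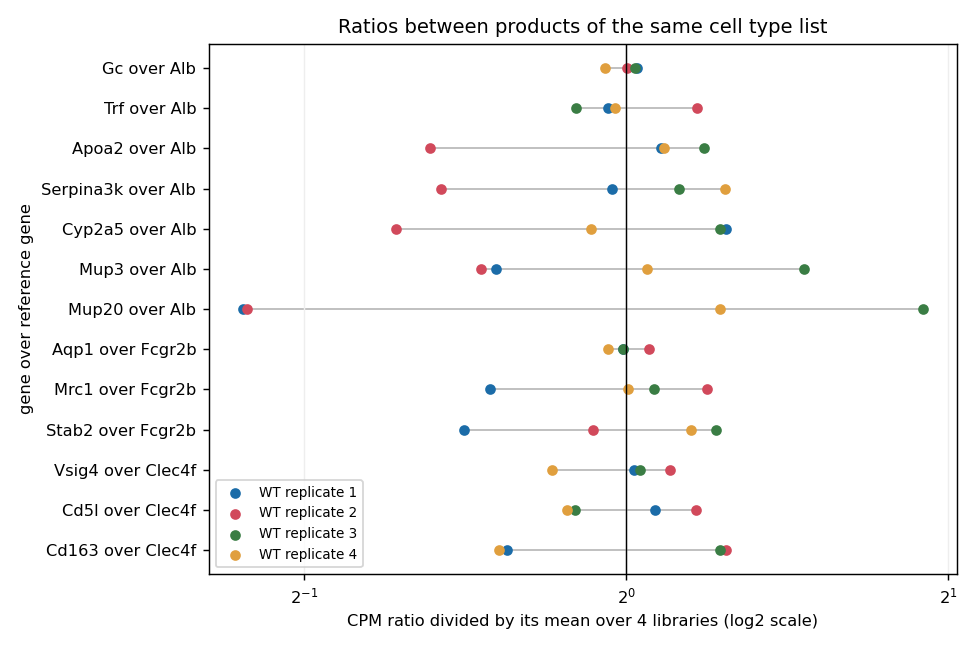
Ratio of each gene to a reference gene of the same cell type (hepatocyte genes over Alb, endothelial genes over Fcgr2b, Kupffer genes over Clec4f), divided by its mean over the 4 WT libraries, on a log2 axis; points are libraries and grey lines join lowest and highest. From lowest to highest library, Gc over Alb spans 1.07-fold and Aqp1 over Fcgr2b 1.09-fold, while Mup20 over Alb spans 4.33-fold.

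Acute phase genes, which hepatocytes raise in inflammation, followed the hepatocyte list: the 14 genes summed to 1535, 2069, 2668 and 5901 CPM. Hpx, which binds free haem, had 801, 974, 1096 and 2932 CPM and was high in WT replicate 4. Orm1 (orosomucoid) had 181, 217, 435 and 811 and Itih4, a protease inhibitor, 222, 421, 283 and 767. Saa1, a serum amyloid A gene that rises strongly in an acute phase, stayed low at 13.7, 6.80, 44.3 and 37.6 CPM. Apolipoprotein genes summed to 5158, 6073, 6819 and 13613 CPM, with Apoa2 at 2172 ± 1285, Apoa1, the main protein of HDL, at 1091 ± 668, and Apoe, which macrophages make as well as hepatocytes, at 1609 ± 604. Cytochrome P450 genes summed to 3737, 4569, 5269.6 and 9863, of which 39 of 44 genes of at least 10 CPM were above the mean of the other libraries in WT replicate 4. Cyp2c29 had 213, 253, 318 and 606 CPM.

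Promoter windows of the listed genes were searched for short strings. Windows from 250 bases before to 50 after the start were read from RefSeq (GRCm38.p6; the counts were made on GRCm39, and genes were linked by name). Among 27025 promoters, GTTAAT, part of the site of the hepatocyte factor HNF1, or its reverse complement stood in 7.20%. Of the 25 hepatocyte genes, 18 had a window and 8 of these (44.4%) held it: Alb, Fgb, Fga, Pck1, G6pc, Fabp1, Gc and Serpina1a. It also stood in 1 of 13 Kupffer windows (Cd5l) and 1 of 13 stellate windows (Hand2). It stood in 0 of 9 general macrophage, 0 of 12 endothelial and 0 of 13 T and NK cell windows. The albumin window is shown because it is the most counted nuclear gene, with GTTAAT in capitals, 32 bases before the start (chr5:90460620-90460919, + strand).
Alb: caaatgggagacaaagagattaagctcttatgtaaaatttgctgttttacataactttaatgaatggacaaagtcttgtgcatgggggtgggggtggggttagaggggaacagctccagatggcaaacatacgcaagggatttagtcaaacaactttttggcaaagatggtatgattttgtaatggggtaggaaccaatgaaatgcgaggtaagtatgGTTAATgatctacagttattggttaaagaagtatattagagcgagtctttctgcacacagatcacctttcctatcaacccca

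Sinusoidal endothelial genes formed the largest list of a nonparenchymal cell type. The 20 genes summed to 12504, 26024, 10154 and 9693 CPM, a mean of 14594 ± 7719 and 1.47% ± 0.801 of the counts. WT replicate 2 was high and the others lay close together: the CV was 52.9% with it and 14.0% without it, where the mean became 10746 CPM. All 20 genes were counted in every library. In WT replicate 2, 19 of 20 were above the mean of the others, with a median log2 difference of 1.28. The exon lengths of this list had a median of 4560 bases. In the fifth of genes with exons of 4092 to 5684 bases the median log2 difference of WT replicate 2 was 0.06. The part of exon length in the value of this list was not tested.

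The endothelial genes with the most counts were Fcgr2b, Ptprb and Aqp1. Fcgr2b, an inhibitory Fc receptor that clears immune complexes in these cells, had 1689.8, 2943, 1124 and 1151 CPM. Stab2, the receptor for hyaluronan and a defining marker, had 427, 981, 489 and 474. Mrc1, the mannose receptor, had 861, 2393, 816 and 789.6. In all 3 WT replicate 2 was highest. For the surface lectin gene Clec4g the values were 1321, 1566, 827 and 859 CPM, and for Dnase1l3, a secreted nuclease, 1132, 2440.3, 782 and 673. Among channel and signalling genes, the water channel Aqp1 had 1354, 2492, 901 and 892 CPM, the VEGF receptor Kdr 694, 1624, 529.6 and 524, and Ptprb, a phosphatase of the angiopoietin receptor, 1185, 2986, 1289.9 and 1159.8. Per kilobase, Aqp1 (537 RPKM) and Clec4g (464) were above Fcgr2b (298), Stab2 (67.7) and the pan-endothelial genes Pecam1 (54.5) and Cdh5 (62.3).

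Signals that endothelial cells send to hepatocytes were measurable. Bmp2, which induces hepcidin in hepatocytes, had 345, 757, 327 and 274 CPM. The Wnt ligand genes Wnt2 (113, 155, 72.1 and 88.0) and Wnt9b (16.5, 32.6, 18.6 and 12.6) and the Wnt enhancer Rspo3 (74.0, 62.7, 32.8 and 29.1) are known to pattern the zone around the central vein. Rspo3 was highest in WT replicate 1 while Bmp2, Wnt2 and Wnt9b were highest in WT replicate 2. The clotting factor gene F8, which liver endothelium makes, had 356, 1197, 310.2 and 293 CPM, and Mmrn2, an endothelial matrix gene, 109.5, 368, 85.0 and 84.6. Both were over 3 times as high in WT replicate 2 as in any other library. Tie1, an endothelial receptor kinase, had 74.6, 174, 69.0 and 74.6 CPM. Egfl7, a secreted endothelial protein gene, had 233, 131, 191 and 143 CPM and its lowest value in WT replicate 2. Within the list the Aqp1 to Fcgr2b ratio had the smallest CV of the 3 endothelial ratios computed (0.801, 0.847, 0.801 and 0.775, CV 3.69%).

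Kupffer cell genes were the next largest, and their defining gene was among the 25 most counted. Clec4f, a lectin restricted to Kupffer cells in mice, had 1668, 2644, 1401 and 1923 CPM. The list of 15 genes summed to 6593, 10291, 5136 and 6492 CPM, or 0.716% ± 0.233 of the counts. It was highest in WT replicate 2 and lowest in WT replicate 3, and its CV fell from 31.0% to 13.4% without WT replicate 2. Of the 15 genes 13 were above the mean of the others in WT replicate 2. The median log2 difference of the 15 there was 0.78, and their median exon length 2471 bases. Endothelial over Kupffer summed CPM was 1.897, 2.53, 1.98 and 1.49 in the 4 libraries, a narrower range than hepatocyte over endothelial CPM, at 2.84, 1.94, 6.06 and 11.9.

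The Kupffer genes cover recognition, iron handling and transcription. Cd5l, a secreted scavenger protein, had 1246, 2156, 881 and 1187 CPM, and Vsig4, a complement receptor, 709, 1215, 604 and 685. Slc40a1, the iron exporter ferroportin, had 1555, 1768, 905 and 1141. Vsig4 and Cd5l had ratios to Clec4f with CVs of 10.5% and 13.6%. Timd4, a receptor for dying cells, had 219, 374, 218 and 217 CPM, with WT replicates 1, 3 and 4 almost equal. The haemoglobin receptor Cd163 had 232, 590.4, 309 and 263 and was more variable against Clec4f (CV 26.9%). Lowest in the list were Marco, a scavenger receptor of bacteria, with 13.7, 45.7, 16.5 and 19.9 CPM and Spic, the factor of red pulp and Kupffer iron handling, with 32.2, 27.9, 30.2 and 36.4. Marco was highest in WT replicate 2, and Spic was lowest there.

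General macrophage genes summed to 5857, 8543, 4835 and 5849 CPM over 14 genes. Lyz2 made up 31.1% of it and was among the steadiest highly counted genes, with 2101, 1831, 1805 and 2057 CPM (CV 7.81%). Mpeg1 (perforin-2) had 914, 1705, 695 and 835 CPM, Ctss (cathepsin S) 777, 1191, 596 and 757, and Adgre1, which encodes F4/80, 261, 680.0, 213 and 251. Each was highest in WT replicate 2. Csf1r, the receptor for the macrophage growth factor CSF1, had 367, 1014, 307 and 381 CPM, and Cd14, the co-receptor for lipopolysaccharide, 13.7, 79.3, 33.3 and 34.8. Tyrobp, a signalling adaptor with a short transcript, had 255, 188, 230.4 and 297 and was lowest in WT replicate 2. Of the 14 general macrophage genes, 12 were above the mean of the others in WT replicate 2. The median log2 difference of the 14 there was 0.74, and their median exon length 1445 bases. Lysosomal genes, which both macrophages and endothelium use, summed to 10249, 17019, 8191 and 10615 CPM, with Ctsb at 2019, 4042, 1543 and 2201, Lamp2, of the lysosomal membrane, at 1235, 1613, 1008 and 1230.3 and Psap, the precursor of saposins, at 799, 1715, 676 and 819. Of 23 lysosomal genes 21 were above the mean of the others in WT replicate 2. The median log2 difference of the 23 there was 0.75, and their median exon length 3474 bases. Cd68, a lysosomal glycoprotein of macrophages, had 51.3, 113, 40.7 and 52.5.

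A second string was counted in endothelial and macrophage promoters. AGGAAG, which holds the core that ETS factors such as PU.1, ERG and FLI1 bind, or its reverse complement stood in 35.1% of all promoters. It stood in 10 of 12 endothelial windows (83.3%), 8 of 13 Kupffer windows (61.5%), 6 of 9 general macrophage windows (66.7%) and 4 of 18 hepatocyte windows (22.2%). It also stood in 7 of 13 windows of T and NK cell genes (53.8%). The windows of Cd5l and Mrc1 are shown as the Kupffer and endothelial genes with 3 matches each, in capitals (AGGAAG on the strand printed or CTTCCT for the other). Their places are chr3:87357631-87357930 and chr2:14229164-14229463, both on the + strand of GRCm38.p6.
Cd5l: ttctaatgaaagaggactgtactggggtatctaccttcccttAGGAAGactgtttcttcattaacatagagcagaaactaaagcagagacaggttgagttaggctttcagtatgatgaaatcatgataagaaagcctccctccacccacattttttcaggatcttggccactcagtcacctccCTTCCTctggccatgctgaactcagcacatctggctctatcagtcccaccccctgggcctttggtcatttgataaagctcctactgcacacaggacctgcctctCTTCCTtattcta
Mrc1: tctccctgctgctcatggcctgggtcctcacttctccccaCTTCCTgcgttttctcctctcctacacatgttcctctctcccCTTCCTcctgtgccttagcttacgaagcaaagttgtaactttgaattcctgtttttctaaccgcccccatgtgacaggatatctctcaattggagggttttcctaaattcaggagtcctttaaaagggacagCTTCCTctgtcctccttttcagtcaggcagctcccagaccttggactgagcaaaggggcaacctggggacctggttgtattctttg
In all 14 strings were searched on both strands, and the 2 named here were chosen after their counts were seen. The others, with their share of all promoters, were TATAAA (14.2%), TATATA (5.94%), the HNF1 full site (0.0629%), CAAAGTCCA (0.477%), GAGGAAGT (3.28%), CCGGAAGT (4.0%), TCACGTGA (1.01%), CATGTG (14.1%), CCAAT (37.9%), TTGCNNAA (10.8%), ACAAT (31.6%) and CTCTTTCC (3.04%). Of these, CCAAT stood in 8 of 18 hepatocyte windows (44.4%), TTGCNNAA in 7 (38.9%), TATAAA in 6 (33.3%) and TATATA in 4 (22.2%). AGGAAG lies within GAGGAAGT, and GTTAAT within the HNF1 full site. A match is a run of letters, not a shown binding site.

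Genes of lineage factors were counted at low to middle levels. Spi1, which encodes PU.1, had 27.5, 35.8, 22.8 and 28.6 CPM, Erg 107, 133, 86.6 and 91.0 and Fli1 64.7, 64.1, 52.5 and 42.0. Maf, a factor of macrophages and of sinusoidal endothelium, was the most counted of 33 lineage factors, with 436, 997, 459 and 397 CPM. It was high in WT replicate 2. Irf8, a factor of myeloid and B cells, had nearly the same value in all libraries, 86.6, 94.8, 91.9 and 88.3 CPM (CV 4.04%). Gata4, a factor of sinusoidal endothelium, had 74.6, 109, 48.0 and 47.4 CPM and Sox18, of endothelium in general, 13.3, 21.1, 8.57 and 8.78. Sox7 had 41.7 ± 18.5 and Tal1, a haematopoietic and endothelial factor, 26.7 ± 5.82. Of the flow-responsive factors, Klf2 had 54.5, 166, 69.4 and 40.8 CPM and Klf4 25.5, 86.3, 46.2 and 20.04, and both were highest in WT replicate 2.

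Among macrophage factors, Zeb2 had 106 ± 19.2 CPM and Nr1h3, the liver X receptor alpha that hepatocytes also express, 78.5, 80.1, 72.0 and 119. Id1 and Id3, inhibitors of helix-loop-helix factors, had 19.3 ± 4.22 and 36.9 ± 8.55. The hepatocyte factor Hnf4a had 133, 100.2, 175 and 180.0 CPM, a CV of 25.6% against 52.9% for the hepatocyte list. Foxa3 had 16.2 ± 7.57, Foxa1 3.12 ± 1.74, Foxa2 3.24 ± 1.85, Cebpa 74.1 ± 15.9 and Cebpb 15.8 ± 5.60, the CEBP factors being shared with myeloid cells. Of stellate cell factors, Lhx2 had 3.25 ± 1.08 CPM, Hand2 2.37 ± 1.21 and Tcf21 5.503 ± 2.28. Of lymphoid factors Pax5 (B cells) had 12.3 ± 2.35, Ebf1 (B cells) 5.55 ± 0.985, Tbx21 (T and NK cells) 9.25 ± 3.48 and Eomes (T and NK cells) 1.51 ± 0.373. Meis1 had 10.6 ± 1.49 CPM, Sox9 (bile duct) 1.17 ± 0.357, and the erythroid factor Gata1 had 2 counts, both in WT replicate 3.

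**Figure D3:**
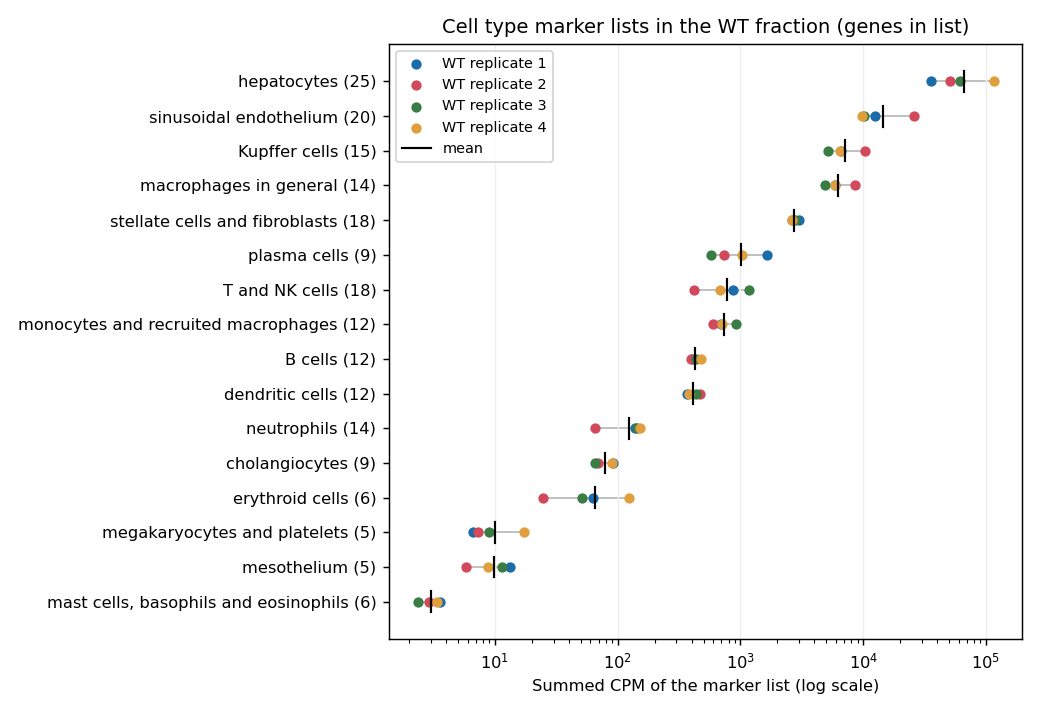
Summed CPM (log axis) of each cell type marker list in the 4 WT libraries, with the number of genes counted in brackets; points are libraries, grey lines run from lowest to highest, and black ticks are means. Hepatocyte, sinusoidal endothelial and Kupffer lists lead, and sums depend on list size and gene length, so the order is not one of cell numbers.

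Stellate cell and fibroblast genes were the steadiest of the larger lists. The 18 genes summed to 2992, 2634, 2760.4 and 2623 CPM (CV 6.24%). This steadiness is that of the sum and of the scaling: by library size alone the CV was 14.9%, the median of the members had a CV of 15.9%, and the members' own CVs had a median of 20.7%. Dcn, the matrix proteoglycan decorin, had 1152, 666, 899 and 805 CPM and Bgn, biglycan, 428, 611, 380.3 and 378. Dcn was lowest and Bgn highest in WT replicate 2. Without Dcn, the highest member, the CV of the sum was 3.56%. Lrat, which esterifies vitamin A for storage and defines stellate cells, had 131, 112, 123 and 134 CPM (CV 7.98%). Reln, an extracellular glycoprotein that these cells secrete, had 149 ± 13.7 CPM, Rgs5, a regulator of G protein signalling in mural cells, 374, 419, 492 and 485, and Hgf, the growth factor for hepatocytes, 70.8 ± 13.6. The 12 members of at least 10 CPM had a median log2 difference of -0.12 in WT replicate 2 and a median exon length of 5968.5 bases.

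Collagen genes, some of which mark activated stellate cells, were also counted. Col14a1 had 190.4 ± 23.1 CPM, Col3a1 33.0 ± 5.96, Col1a2 16.7 ± 1.12 and Col1a1 1.76 ± 0.412. Per kilobase, Lrat (23.4 RPKM) was above Col3a1 (3.36), Col1a2 (1.34) and Col1a1 (0.269). Ngfr, a stellate surface receptor, had 2.01 ± 0.674 CPM.

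T and NK cell genes differed more between libraries than B cell genes. The 18 counted T and NK genes summed to 861, 417, 1171 and 687 CPM, lowest in WT replicate 2 and highest in WT replicate 3. Granzyme genes led: Gzma had 107, 47.1, 216 and 86.0 CPM and Gzmb 51.1, 42.2, 164 and 61.1, both proteases of killer cells, and both were highest in WT replicate 3. The activating receptor Klrk1 had 78.6, 36.5, 89.3 and 63.9 CPM, and the T cell receptor chain Cd3e 31.3, 16.1, 36.0 and 21.5. Cd8a, the co-receptor of killer T cells, had 33.5, 14.2, 66.3 and 22.8, while Cd4 had 22.2, 23.03, 20.5 and 18.3, with a CV of 9.85%. The lowest members were Cd8b1 with 9.46 ± 1.81 CPM and Prf1, perforin, with 6.70 ± 2.07. Of 16 members of at least 10 CPM, 15 were below the mean of the others in WT replicate 2, with a median log2 difference of -1.11. The median exon length of these genes was 2372 bases.

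B cell genes summed to 403, 396, 430.3 and 478 CPM over 12 genes (CV 8.65%). That CV was 4.58% without WT replicate 4 and 4.73% with library size only, and 13.4% without the highest member and 14.5% as the median of members. Ighm, the heavy chain of IgM, had 127, 164, 133 and 157 CPM, and Ighd, that of IgD, 57.3, 56.5, 69.0 and 68.5. Ms4a1, which encodes CD20, had 61.1, 39.6, 58.1 and 63.9, and Fcer2a, the low-affinity IgE receptor, 10.3 ± 1.78. Cd79a, a chain of the B cell receptor, had 17.3, 16.8, 16.4 and 18.9 (CV 6.28%, with 5.75% from counting error alone). Plasma cell genes had a CV of 47.1%, or 29.5% without WT replicate 1: they summed to 1649.8, 740.4, 579 and 1037 CPM, and WT replicate 1 was highest. Jchain, which joins IgA and IgM into polymers, had 586, 147, 191 and 282 CPM, the light chain Igkc 733, 386, 287 and 538, and the IgA heavy chain Igha 142, 102, 31.0 and 61.2. Each was highest in WT replicate 1, and plasma over B cell summed CPM was 4.09, 1.87, 1.35 and 2.17. Igkc made up 48.5% of the plasma list and Ighm 34.0% of the B cell list. The ratio is thus one of lists, not of cell numbers. Mzb1, an endoplasmic reticulum gene of plasma cells, had 0.379, 0.0515, 0.0840 and 0.300 CPM, near the limit of 3 counts, and the plasma cell receptor Tnfrsf17 0.705, 0.412, 0.672 and 0.899. Reads of related immunoglobulin segments may be shared or dropped by the counting.

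The 12 monocyte genes summed to 696, 600.1, 925 and 707 CPM, of which Plac8, a gene of monocytes and NK cells, made up 53.1%. Without Plac8 the CV of the sum fell from 18.8% to 2.84%, so the spread of this list was largely that of Plac8. Ccr2, the receptor that draws monocytes from blood, had 116, 70.0, 109 and 84.1 CPM. Ly6c2, of classical monocytes, had 35.7, 36.7, 40.6 and 43.4, while F13a1 (3.37 ± 0.818) and Ly6i (1.81 ± 1.42) were lowest. Dendritic cell genes summed to 369.8, 469, 437 and 378 CPM (CV 11.5%). Clec9a, a receptor of cross-presenting cells, had 72.0, 53.2, 95.9 and 69.1 CPM, and Siglech, of plasmacytoid cells, 43.1, 76.5, 80.2 and 68.6. Zbtb46, a dendritic factor that endothelium also expresses, had 95.6, 129, 106 and 86.6, and Flt3, the growth factor receptor that defines dendritic cells, 9.32, 13.7, 11.002 and 9.25. Fscn1, of mature dendritic cells, had 10.1 ± 6.05 and Xcr1, the receptor of cross-presenting cells, 8.93 ± 1.80.

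Neutrophil genes had few counts. S100a9 and S100a8, which form the alarmin calprotectin, had 53.5, 16.6, 58.5 and 59.7 CPM for S100a9 and 41.4, 14.2, 45.2 and 47.5 CPM for S100a8. WT replicate 2 was low in both, and their ratio kept a CV of 4.64%. Csf3r, the G-CSF receptor that monocytes share, had 23.7, 20.6, 21.2 and 19.96. Ly6g, the defining neutrophil marker, had 0.163, 0.0515, 0.0840 and 0.214 CPM, which is 1 to 5 counts a library, and Mpo (0.120) and Elane (0.0214), made in the marrow, were near 0.

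Genes of other cell types had fewer counts still. Erythroid genes summed to 63.0, 24.6, 51.5 and 124 CPM, with the haem synthesis enzyme Alas2 at 36.4, 20.7, 40.1 and 72.7. The globin genes, whose near-identical copies make the split uncertain, had 80.4, 11.3, 30.2 and 139.8 CPM for Hbb-b1, 13.4, 2.22, 5.88 and 26.1 for Hbb-bt and 7.80, 1.03, 2.77 and 12.9 for Hba-a2. These globin and Alas2 values were lowest in WT replicate 2 and highest in WT replicate 4. Slc4a1, the anion exchanger of red cells, had 0.192 ± 0.109. Of the bile duct list, Spp1, osteopontin, which other cells also make, had 84.8, 64.1, 58.4 and 82.7 CPM, while the duct keratin Krt19 had 0.488, 0.721, 0.504 and 0.514 and Epcam 3.25, 2.16, 3.61 and 3.55. Cldn4, a tight junction gene, had 0.0264 ± 0.0305. The summed CPM was 10.1 ± 4.96 for platelet genes, 9.79 ± 3.23 for mesothelial genes and 3.04 ± 0.541 for mast cell, basophil and eosinophil genes. The platelet chemokine Pf4 (2.60, 2.83, 3.36 and 7.58) and the mesothelial gene Upk3b (6.83, 2.22, 4.45 and 3.21) had the most counts of the first and second of these. Platelet genes also included Itga2b (3.47, 3.66, 3.61 and 4.75), Ppbp (1.75 ± 1.70), Treml1 (0.214 ± 0.233) and Gp9 (0.117 ± 0.145), and mesothelial ones Lrrn4 (2.24 ± 0.679), Upk1b (1.46 ± 0.472), Msln (1.28 ± 0.470) and Wt1 (0.626 ± 0.388). For mast cells, basophils and eosinophils, Siglecf had 0.793 ± 0.308, Ms4a2 0.749 ± 0.202, Cpa3 0.662 ± 0.199, Mcpt8 0.244 ± 0.121 and Prg2 0.241 ± 0.282.

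**Figure D4:**
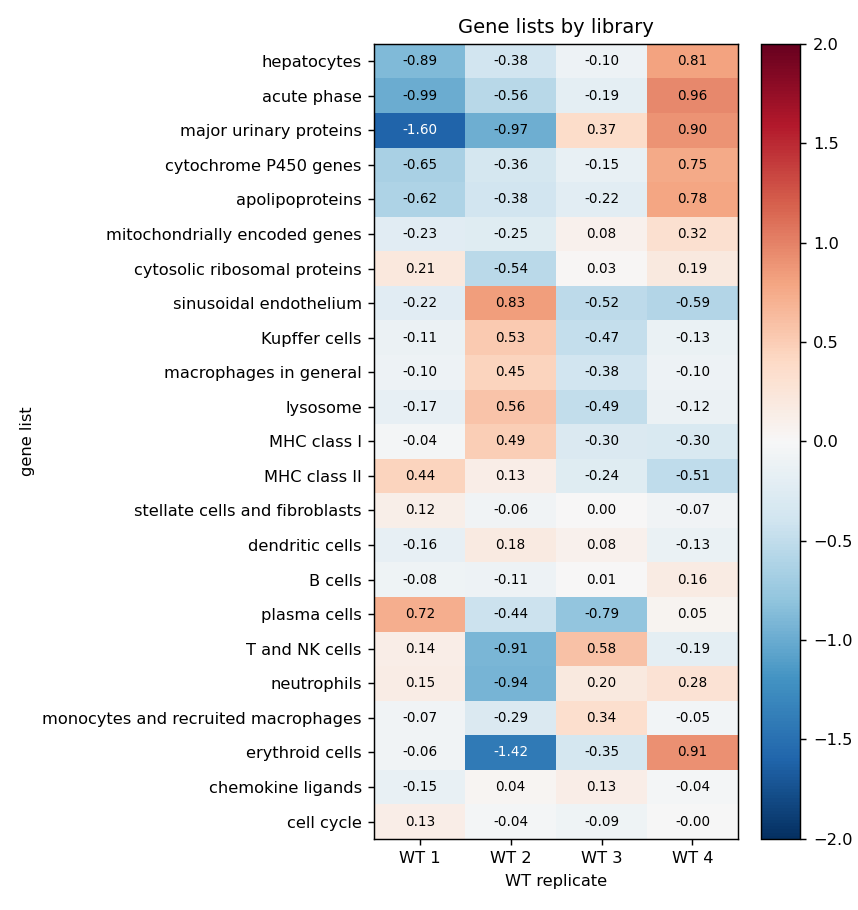
Log2 of each gene list's summed CPM over its mean of the 4 WT libraries, as colour and number, with lists in rows and WT replicates in columns. Hepatocyte, acute phase and major urinary protein lists are highest in WT replicate 4, endothelial, Kupffer and lysosomal lists in WT replicate 2, and the stellate list ranges from -0.07 to 0.12.

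Translation genes took a large and uneven share. The 90 cytosolic ribosomal protein genes summed to 33539, 19888, 29522 and 33078 CPM, or 2.91% ± 0.694 of the counts. WT replicate 2 was low: 4 of the 79 genes of at least 10 CPM were above the mean of the others there, with a median log2 difference of -0.64 and a median exon length of 1830 bases. Rps24 had 1778, 891, 1813 and 1720.0 CPM and Rpl9 1607, 758, 1446 and 1532, whereas Rps4x, X-linked, had 1211, 983, 1116 and 1122. Reads of ribosomal protein genes may be shared with their many processed pseudogenes. Translation factors were steadier, at 14055, 12303, 11946 and 13989 CPM, with Eef1a1 at 7483, 6371, 5759 and 7494, Tpt1 at 2094, 1660.3, 1773 and 1828 and Eif4g2 at 977, 1018, 840.2 and 870.5. The nuclear noncoding RNAs Neat1 (405, 165, 579 and 359.9 CPM) and Malat1 (295, 145, 408 and 315) were lowest in WT replicate 2, as was the ribosomal RNA gene Rn18s (1109, 522, 1178 and 883). Gas5, which hosts small nucleolar RNAs, had 86.0, 85.4, 137 and 102. Histone genes summed to 856, 763, 807 and 855 CPM, with the polyadenylated replacement histones H3f3b at 273, 302, 298 and 269 and H3f3a at 199, 131, 166 and 191 and the linker histone H1f0 at 121, 122, 109 and 122.

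Genes of antigen presentation by MHC class I and class II had different highest libraries. Class I genes summed to 5231, 7578, 4392 and 4373 CPM, with B2m at 2726, 4286, 2189 and 2139, H2-K1 at 941, 1238, 913 and 969 and H2-D1 at 770.4, 1163, 638 and 642, whose reads may be shared among related H2 genes, and were highest in WT replicate 2. Class II genes summed to 2489, 1996, 1546 and 1285 CPM and were highest in WT replicate 1 and lowest in WT replicate 4. H2-Aa had 781, 529.9, 470.1 and 365 CPM, H2-Eb1 419.8, 279, 255 and 209.9, and the invariant chain Cd74 777, 869.5, 509 and 426. Of these 3, Cd74 was highest in WT replicate 2 and the others in WT replicate 1. Interferon-stimulated genes summed to 979, 1312, 908 and 931 CPM, with Bst2 (tetherin) at 143, 176, 122 and 166, Rtp4, a chaperone of receptors, at 114, 121, 81.4 and 75.1 and Irf7, which drives interferon production, at 76.9, 163, 90.1 and 93.8.

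Complement genes differed in their highest library. C3, the central component, had 822, 1355, 1021 and 1830.1 CPM and was highest in WT replicate 4, as the hepatocyte genes were. C1qb, of the recognition molecule that macrophages make, had 327, 606, 317 and 451 and was highest in WT replicate 2, as the Kupffer list was. Of iron genes, Trf and Hpx were highest in WT replicate 4 and Slc40a1 in WT replicate 2, while the ferritin heavy chain Fth1, of all cells, had 978, 1007, 988 and 1403 CPM.

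Chemokine ligands, the genes the study's design names, were steady in sum and less so singly. The 37 genes summed to 1167, 1333, 1424 and 1264 CPM (CV 8.36%), but the members kept by the filter had a median CV of 51.1%. Ccl6 had 254, 475, 514 and 483 CPM and was low in WT replicate 1, and Ccl9 had 66.4, 132, 240.0 and 178; both draw myeloid cells in mice. Cxcl12, which holds CXCR4-bearing cells and is made by stromal cells, had 427, 269, 360.0 and 340.2 CPM. Cxcl16, which holds the CXCR6-bearing NKT cells of the sinusoids, had 115, 142, 62.1 and 80.6, and Cxcl9, an interferon-gamma target, 127, 161, 65.3 and 46.8. Ccl24, an eotaxin, was the steadiest of the 12 most counted, with 38.2, 39.4, 35.5 and 37.3 CPM. Among ligands that inflammation can induce, Ccl2 was at 3.04, 0.773, 1.01 and 1.07 CPM, Cxcl1 at 0.705, 0.876, 2.10 and 1.54, Cxcl2 at 0.705, 0.618, 0.840 and 0.386 and Ccl3 at 0.271, 0.154, 0.504 and 0.171, and the median member of the list averaged 1.60 CPM.

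Among chemokine receptors, Cxcr6 had 292, 67.1, 229 and 152 CPM and was lowest in WT replicate 2. Cxcr4, the receptor for Cxcl12, had 54.5, 46.6, 62.7 and 60.6, and Ackr4, an atypical receptor that removes ligands, 41.3, 67.3, 34.4 and 33.2. The 21 receptor genes summed to 871, 563, 747 and 602 CPM.

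Immediate early and stress genes, which tissue dissociation can induce, summed to 1956, 2415, 1903 and 2056 CPM, of which the chaperone Hspa8 made up 60.7% with 1217, 1321, 1041 and 1476. The phosphatase gene Dusp1 had 117, 179, 220.4 and 90.6 CPM, the factor Klf6 182, 203, 141 and 117, Fos 8.13, 8.65, 12.7 and 4.33, and Jun 15.4, 25.6, 11.5 and 8.61. Cell cycle genes summed to 344, 306, 295 and 314 CPM (CV 6.63%), with the replication clamp Pcna at 95.9, 77.8, 82.1 and 76.6 and the helicase subunits Mcm6 and Mcm3 at 32.8 ± 6.80 and 29.7 ± 9.23. Cytoskeletal genes summed to 10406, 8791, 9408 and 8940.3, of which Tmsb4x (6153, 3463, 5697 and 5286) made up 54.9%. The actin gene Actb had 766, 971, 598 and 621 CPM and Msn, moesin, 503, 813, 469 and 406.

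The labels give no sex, and Y-linked genes were counted in all 4 libraries. Ddx3y had 140.3, 115, 139 and 117 CPM, Uty 37.1, 41.3, 41.2 and 38.8, Kdm5d 36.2, 26.6, 33.9 and 32.7 and Eif2s3y 89.4, 52.5, 115 and 95.2, the last with a CV of 29.5% and its lowest value in WT replicate 2. Xist, the RNA of the inactive X chromosome, had 0, 0, 0.168 and 0.171 CPM, at most 4 counts. Male-biased liver genes were present and were highest in WT replicate 4: Cyp2d9 had 102, 112, 147 and 331 CPM, Cyp4a12a 40.3, 52.6, 57.1 and 96.4, Cyp7b1 26.9, 41.2, 77.3 and 117, Hsd3b5 34.1, 26.01, 45.9 and 92.8, Elovl3 7.80, 8.19, 27.7 and 63.3 and Nudt7 378, 160.4, 416 and 700.0. Of 8 female-biased genes, Cyp3a41a, Cyp2b13, A1bg and Sult2a1 had no count in any library. Sult3a1 had 1 count in all, and Cyp2b9 stayed at 0.591 ± 0.531 CPM.

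Another female-biased gene, the steroid hydroxylase Cyp2a4, had 2.87, 76.2, 5.12 and 3.43 CPM: WT replicate 2 lay over 10 times above the rest. Its paralogue Cyp2a5, the coumarin hydroxylase of hepatocytes, had 131, 97.6, 188 and 292 CPM and was lowest in WT replicate 2. The annotated transcripts of these genes are 98.3% identical over 1738 aligned bases, with identical runs of up to 216 bases, so their reads can be hard to assign. The promoter windows show how close the copies are: they are 98.3% identical over 299 aligned bases, and capitals mark the 5 bases that differ. Both are on the + strand of chromosome 7 in GRCm38.p6, Cyp2a4 at chr7:26306942-26307241 and Cyp2a5 at chr7:26835089-26835388.
Cyp2a4: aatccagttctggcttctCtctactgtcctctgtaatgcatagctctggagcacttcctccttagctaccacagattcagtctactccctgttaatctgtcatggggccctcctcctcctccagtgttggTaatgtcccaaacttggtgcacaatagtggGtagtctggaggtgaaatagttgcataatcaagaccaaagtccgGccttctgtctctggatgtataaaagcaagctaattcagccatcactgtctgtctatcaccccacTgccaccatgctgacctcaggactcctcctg
Cyp2a5: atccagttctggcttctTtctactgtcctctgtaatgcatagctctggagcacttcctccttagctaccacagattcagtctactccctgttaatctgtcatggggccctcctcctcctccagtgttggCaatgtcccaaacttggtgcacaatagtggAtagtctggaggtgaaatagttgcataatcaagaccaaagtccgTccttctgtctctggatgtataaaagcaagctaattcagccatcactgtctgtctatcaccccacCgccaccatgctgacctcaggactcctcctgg
Whether reads of one gene were counted for the other was not tested.

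Across the 12975 kept genes the median CV was 20.8%, or 14.1% without WT replicate 2. Counting error alone gave a median of 5.17% over the 4 libraries. In 76.0% of these genes the CV was over 2 times that of counting error. The highest library was under 1.5 times the lowest in 42.0% of genes, under 2 times in 73.2% and under 4 times in 97.2%. The common biological CV, fitted by edgeR to the 4 libraries, was 27.1%, and 21.4% without WT replicate 2. The spread of most genes was thus larger than depth alone gives.

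Spread was smallest at middle levels and largest at the top. Genes of 10 to 100 CPM had a median CV of 17.8% (7293 genes) and genes of 1 to 10 CPM one of 25.7% (3935 genes). At 100 to 1000 CPM it was 23.05% (1549 genes), and the 72 genes of at least 1000 CPM had a median of 41.5%. Of these 72, 34.7% stayed under 2-fold between libraries. These highest genes include the hepatocyte and endothelial products described above, whose lists had member CVs with medians of 57.0% and 53.6%.

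**Figure D5:**
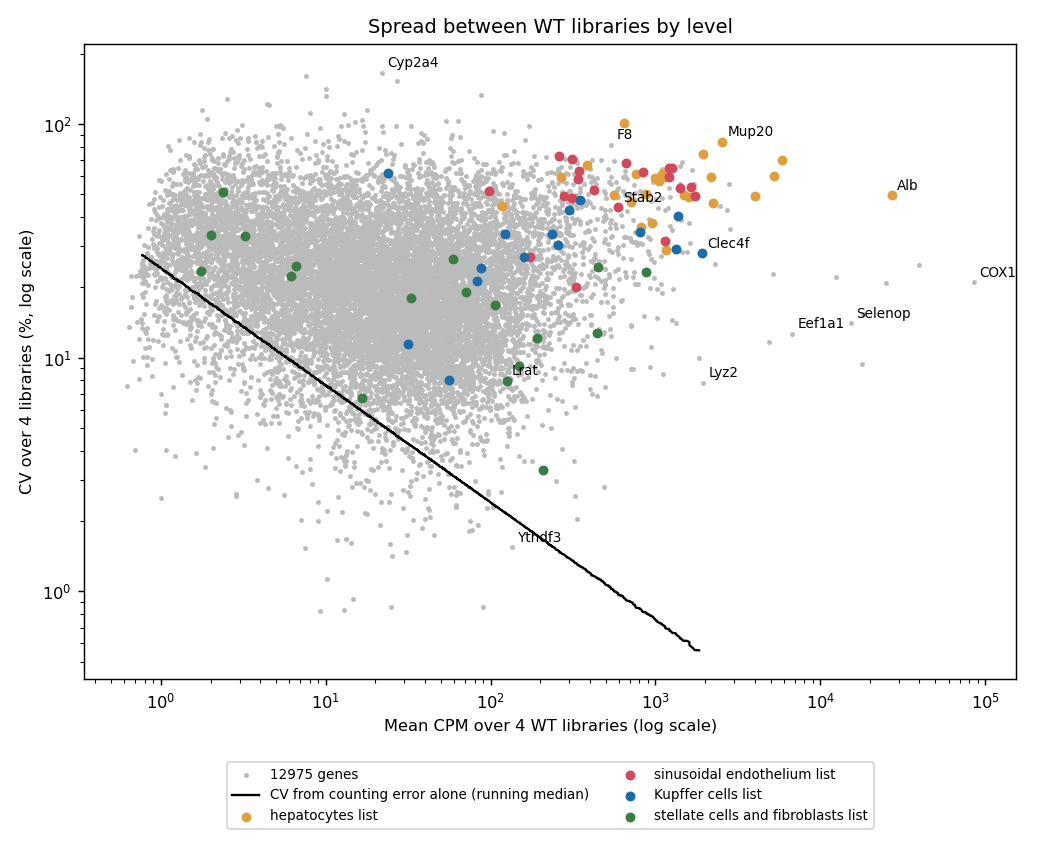
CV over the 4 WT libraries (%, log axis) against mean CPM (log axis) for the 12975 kept genes, with 4 cell type lists in colour and the running median of the CV from counting error alone as a line, drawn as far as its window reaches. Hepatocyte (yellow) and endothelial (red) genes lie high on the right, while stellate genes such as Lrat lie lower, and Ythdf3 lies below the line.

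Among the 10 genes with the smallest CVs at 100 CPM or more, Ythdf3, a reader of methylated RNA, had 138, 137, 134 and 134 CPM (CV 1.54%, below the 2.07% of counting error). Arrb2, an arrestin, had 106, 101, 104 and 101 CPM (CV 2.29%). Others were Npm1 (nucleophosmin), Xpo1 (nuclear export), Ndfip1 (an adaptor of ubiquitin ligases), Dram2 (autophagy), Ecm1 (a stellate list gene, 215, 212, 200.1 and 204 CPM), Sec24c (vesicle coat) and Vdac2 (mitochondrial channel), with CVs of 2.57% to 3.61%. Which genes were steadiest depended on the scaling: 0 of the 10 stayed among the 10 when libraries were scaled by size alone, 1 with upper quartile factors and 10 with DESeq2's size factors. No gene is shown to be a fixed reference by its place here.

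Among the 10 genes with the largest CVs at 100 CPM or more, Cyp3a11, a drug-metabolising enzyme, had 319, 204, 441 and 1600.0 CPM (CV 101%). Mup7 had 27.4, 187, 1041 and 1371 CPM and Mup14 13.6, 66.2, 219 and 385. Both were low in WT replicates 1 and 2 and high in WT replicates 3 and 4. Cyp2c67 had 55.3, 57.1, 52.8 and 247 CPM, with WT replicate 4 alone high. Apcs, serum amyloid P, had 42.6, 50.9, 110.4 and 281, and Selenbp2, a male-biased hepatocyte gene, 47.4, 47.4, 215 and 248. Mup20, Fabp1, F8 and Mmrn2 complete the 10. Of these 10 genes 7 stayed when libraries were scaled by size alone, and 10 with DESeq2's or with upper quartile factors.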

How the data were processed

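Sequenced RNA of the liver nonparenchymal fraction was described in the 4 WT libraries of 7. The table that the authors deposited holds raw gene counts in whole numbers for 20354 genes. Per the submitters' processing notes, featureCounts 2.0.3, STAR 2.7.10a, SAMtools 1.9 and FastQC 0.11.9 were used, with the build GRCm39. Annotation and settings were not given in the sources used here. Overlapping and near-identical genes may have lost or shared reads, and antisense genes cannot be told apart.

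Counts were kept for 12975 genes by edgeR's filterByExpr (minimum count 10, minimum total 15; edgeR 4.0.16, R 4.3.3) and scaled with TMM factors of 1.10, 1.01, 1.02 and 0.88 in WT replicates 1 to 4. Shares of counts are unscaled. The CV from counting error is that of Poisson counts, and 3 counts, the limit for a gene without a count, cover counting error only. RPKM used exon lengths of GENCODE M21 (GRCm38), held for 98.9% of genes, and 20256 symbols matched RefSeq. Mitochondrially encoded genes were taken by RefSeq's symbols, since the name pattern meant for them matched none. The scripts were tested on simulated data.

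Lists and members were chosen with earlier results of these data known. Named by rule were the 25 most counted genes, the 3 highest and 2 lowest members of each cell type list, the defining markers, the 3 highest of each functional group, the 10 lowest and 10 highest CVs at 100 CPM or more, lineage factors and sex-linked and sex-biased genes. Any other gene named was chosen after its values were seen, as were the lists of chemokine receptors and of zonal genes and the 2 promoter strings described. Listed genes that were not analysed here number 10, and some genes that the rule names are not reported here. Alternatives were DESeq2 1.42.0 size factors, upper quartile factors, library size, totals without mitochondrial genes, other filters and summaries, and leaving out each library. Totals without the hepatocyte list were added after seeing the data.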

Additional observations from a re-analysis of the deposited data

Results flagged for a closer look

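Of 242 values checked, 26 had 1 library far from the other 3. Chance alone flags about 1 in 20 independent values, but that rate does not hold here. Some genes were named for a high or low CV, and lists were checked beside their own members. WT replicate 2 was that library for 17 of them, WT replicate 4 for 5, and WT replicates 1 and 3 for 2 each.

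In WT replicate 2, endothelial genes stood high: Stab2 was at 981 CPM, Ptprb at 2986, Tie1 at 174, F8 at 1197 and Mmrn2 at 368. Macrophage and lysosomal genes did so too, with Adgre1 at 680.0 CPM, Cd68 at 113 and Psap at 1715. The factor gene Maf was at 997 CPM, and the summed lineage factor list at 2430.5 CPM. Krt19, at 0.721 CPM, rests on 14 counts. Cyp2a4 was at 76.2 CPM and carried the summed female-biased list to 78.0 CPM. In the same library the neutrophil list was low at 65.1 CPM, with S100a9 at 16.6, as were Rps24 at 891 CPM and Npm1 at 311 CPM. Npm1 is among the 10 genes with the smallest CV, so its gap is small in size. Of the general macrophage genes, Cd68 (1257 bases of exon) was high there and Tyrobp was lowest there. Lyz2 (1316 bases) was at 1831 CPM, inside the range of the other libraries. The general macrophage list, with a median exon length of 1445 bases, had a median log2 difference of 0.74 in WT replicate 2. The part of the lean of WT replicate 2 towards long exons in these values was not tested.

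In WT replicate 4 the hepatocyte genes Hpx (2932 CPM), Cyp3a11 (1600.0) and Cyp2c67 (247) were high, as were the platelet genes Pf4 (7.58) and Itga2b (4.75). Itga2b rests on 64, 71, 43 and 111 counts, and its CV was 15.3% against 12.1% from counting error alone. In WT replicate 3 the killer cell protease gene Gzmb was high at 164 CPM and the linker histone gene H1f0 low at 109 CPM. In WT replicate 1 the B cell factor gene Pax5 was low at 8.78 CPM and the chemokine gene Ccl6 at 254 CPM.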

How the results depend on the processing

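The 126 main recomputed values were those of the hepatocyte, endothelial, Kupffer, stellate and T and NK lists and summaries over all genes. Of these, 117 stayed the same and 9 moved. A mean stayed the same if it shifted by less than its SD between libraries, and other values if they changed by under 1.5 times. A list with a small SD, such as the stellate one, therefore moved more easily. Leaving out each library in turn, the CV of the hepatocyte list ran from 26.8% to 63.1%, of the endothelial list from 14.0% to 60.8%, of the Kupffer list from 13.4% to 36.6% and of the stellate list from 2.84% to 7.42%. The stellate CV was 14.9% with library size only, 3.56% without its highest member and 15.9% as the median of members. The stellate mean was 3451 CPM on totals without mitochondrial genes and 2940.1 CPM on totals without the hepatocyte list, as smaller totals raise every CPM. Of 279 other recomputed values, 41 moved. The 10 steadiest genes shared between 0 and 10 members with those under other settings, and 2 to 4 when a library was left out. The 10 most variable genes shared 5 to 8 when a library was left out. No paired analysis was possible because 1 group was described. By counting error alone, a gene without a count may have a level of up to 0.128 to 0.252 CPM at these depths.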

Other observations

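Liver zones were described with gene lists made after values were seen. Pericentral over periportal hepatocyte genes (8 genes each) gave summed CPM ratios of 1.38, 1.01, 0.836 and 1.21 in WT replicates 1 to 4. The same ratio for 8 pericentral and 8 periportal endothelial genes was 1.08, 1.09, 1.46 and 1.24. Msr1, the macrophage scavenger receptor gene, made up 53.3% of the periportal endothelial sum, and Fabp4 34.9% of the pericentral one. The endothelial ratio therefore rests largely on these genes and may not be one of endothelial zones. Cyp2e1 made up 42.7% of the pericentral hepatocyte sum and Cps1 33.0% of the periportal one, so the hepatocyte ratio also leans on single genes. The hepatocyte ratio was lowest in WT replicate 3, where the endothelial ratio was highest.

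In 6 of 20354 genes 1 library lay over 10 times from the nearest other, with at least 5 CPM in the next lowest library or 10 CPM in the highest. These genes were searched for after values were seen. Btnl9, a butyrophilin-like gene of endothelium, had 44.4, 95.4, 0.336 and 34.0 CPM, so that WT replicate 3 was nearly without it. Low in 1 library were also Gm10036 (13.2, 9.01, 0.168 and 12.8 CPM), Gm4841 (29.8, 1.39, 15.96 and 14.1) and Nxpe4 (10.5, 11.1, 1.01 and 16.1). High in 1 library were Ifi213 (25.9, 0.824, 2.27 and 1.37 CPM) and Cyp2a4, described above.

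Plasma cell genes did not keep fixed ratios to each other. Jchain over Igkc was 0.799, 0.381, 0.666 and 0.525, and Igha over Igkc 0.194, 0.265, 0.108 and 0.114.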
